A study of Homo sapiens with 20 samples.

Results

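The genes described here are 10 members of the heat shock response: *HSPA1A*, *HSPA1B*, *HSPA8*, *HSPH1*, *HSP90AA1*, *DNAJB1*, *HSPB1*, *BAG3*, *HSPD1* and *HSPE1*. They were taken by symbol, through the Ensembl identifier of each row, from the 58233 genes of each count table, and all 10 were found and passed the low-count filter in every comparison. The first 8 act in the cytosol and nucleus, whereas *HSPD1* and *HSPE1* encode the chaperonin and co-chaperonin of the mitochondrial matrix, so a cytosolic label does not hold for those 2 genes.

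Heat shock proteins bind unfolded or damaged proteins and either refold them or pass them on for degradation. Their genes are switched on by the transcription factor HSF1, which is held inactive by chaperones in unstressed cells and, once released by misfolded protein, binds heat shock elements, repeats of the unit GAA and its reverse TTC, near the start of its target genes. Heat, oxidants, proteasome inhibitors and rough handling of cells all raise this set, and because its induced members respond within minutes they are used as a readout of proteotoxic stress. Interferons act through other transcription factors, and IFN-β is not itself a heat shock stimulus.

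RNA-seq libraries came from 4 lung cancer cell lines in which a lentivirus delivered Cas9 with an sgRNA against GFP, a sequence absent from human cells, or against *ADAR*, which encodes an enzyme that edits double-stranded RNA. A549 cells with either target received vehicle, which was sterile water, or IFN-β at 10 ng/mL for 24 h, and the interval since their transduction was not given in the sources used here. HCC366, NCI-H1650 and NCI-H196 cells, which the study treats as ADAR1-dependent, were left untreated and were lysed 5 days after transduction. Each of the 10 conditions had 2 libraries, 1 per sgRNA (sg1 and sg2), so 20 in all. All groups therefore carry Cas9 and a guide, the cells are transduced populations rather than clones, and the spread within a condition is that between 2 sgRNAs in what the study describes as 1 experiment. In such bulk RNA, fewer cells with a transcript and less of it per cell cannot be told apart. The labels call A549 and NCI-H1650 lung adenocarcinoma, HCC366 adenosquamous carcinoma and NCI-H196 a variant small cell cancer. In the GFP libraries the summed epithelial markers lay between 2550 and 5060 CPM (read counts scaled to library size) in the first 3 lines and between 41.8 and 62.8 CPM in NCI-H196. In A549 and HCC366 that sum was carried by *KRT8* and *KRT18*. The other listed markers were low there, with *EPCAM* at most 1.87 CPM, *KRT19* at most 1.66 CPM and *CDH1* at most 38.2 CPM. In NCI-H1650, labelled adenocarcinoma, the 4 squamous markers summed to between 175 and 177 CPM. That sum came mostly from *DSG3* (104 to 114 CPM) and *KRT6A* (57 to 69.2 CPM). *TP63* reached at most 2.09 CPM and *KRT5* at most 2.96 CPM there. Defining markers of the labelled types were low: the 3 adenocarcinoma markers summed to at most 4.82 CPM in any line, the squamous markers to at most 1.87 CPM in HCC366 and the 5 neuroendocrine markers to at most 2.43 CPM in NCI-H196, where the 3 mesenchymal markers summed to at least 3670 CPM. Mesenchymal sums were 977 to 991 CPM in A549, 1350 to 1640 CPM in NCI-H1650 and 57.2 to 69.6 CPM in HCC366. Leukocyte markers (4 genes) reached at most 1.17 CPM and the 1 endothelial marker matched at most 2.14 CPM.

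Reads on genes ran from 62679 to 19520189 per library with a median of 6411279, and the 10 genes took between 0.414% and 0.745% of them. A pair of libraries stood apart. NCI-H196 GFP sg2 had only the 62679 reads, so the members had between 3 reads (*HSPE1*) and 139 reads (*HSP90AA1*) there. In HCC366 *ADAR* sg2, 85.6% of alignments were not unique, against 22.5% to 59.1% elsewhere, and GC content with transcript length accounted for 50.2% of the variance of its log2 levels around those of its line. That share was 34.6% in HCC366 GFP sg2 and at most 22.6% in the other 18 libraries. Both are named wherever a result rests on them. *ADAR* itself was lower in each *ADAR* library than in either GFP library of the same line and treatment. In HCC366 it stood at 804.1 and 1101 CPM with the GFP guides and at 571.2 and 490.2 CPM with the *ADAR* guides. By edgeR's quasi-likelihood test, *ADAR* fell by 1.29 on the log2 scale in NCI-H1650 (adjusted p = 6.63e-14) and by 0.41 in NCI-H196 (adjusted p = 0.00165), and stood at −0.84 in HCC366 without passing (adjusted p = 0.208). In A549 it changed by −1.08 with vehicle (adjusted p = 9.98e-05) and by −0.60 with IFN-β (adjusted p = 0.00148). Cas9 cuts need not remove the transcript, so these levels check the labels only in direction.

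The start regions of 7 of the 10 members hold letters of the kind through which HSF1 is known to act. Sequences are those of RefSeq on build GRCh38.p14, whereas the counts were made on hg19, the GRCh37 build. All 10 members matched, with 14 start sites between them, and the 250 bases before each start were searched on both strands. A 3-unit heat shock element (3 alternating GAA and TTC units with NN between neighbours) lay in 3 of the 14 windows, 21.4%, against 155 of 35116 windows over all genes, 0.441%. Those windows belong to *HSPA8*, *HSP90AA1* and *HSPD1*. The 2-unit form, GAANNTTC or TTCNNGAA, which every 3-unit match also contains, lay in 7 of the 14 windows (50%) and in 4067 of all windows (11.6%). No match to either form lay in the windows of *HSPE1*, *BAG3* and *HSPH1*. The *HSPD1* match lay in its second window (chr2:197499841-197500090), just outside the edge of the *HSPE1* window (chr2:197500129-197500378). TATAAA was found in 2 member windows (14.3%, against 10.7% of all windows) and CCAAT in 7 windows of 5 genes (50%, against 32%). A match is a run of letters and not a measured binding site.

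The 5 start regions printed here are those of the stress-induced HSP70 pair, on which most results turn, and of 3 further members with matches close to the start. Capitals mark the heat shock element units and, for the HSP70 pair, the TATA box. *HSPA1A* is read from chr6:31815293-31815542 on the plus strand, *HSPA1B* from chr6:31827488-31827737 on the plus strand, *HSPA8* from chr11:123062137-123062286, *HSP90AA1* at its second start from chr14:102087045-102087194 and *DNAJB1* at its second start from chr19:14518398-14518547, the last 3 on the minus strand.
HSPA1A: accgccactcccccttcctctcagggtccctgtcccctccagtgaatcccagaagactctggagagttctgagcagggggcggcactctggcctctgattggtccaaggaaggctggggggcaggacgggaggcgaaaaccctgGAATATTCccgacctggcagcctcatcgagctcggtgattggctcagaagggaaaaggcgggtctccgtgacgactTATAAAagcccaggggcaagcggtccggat
HSPA1B: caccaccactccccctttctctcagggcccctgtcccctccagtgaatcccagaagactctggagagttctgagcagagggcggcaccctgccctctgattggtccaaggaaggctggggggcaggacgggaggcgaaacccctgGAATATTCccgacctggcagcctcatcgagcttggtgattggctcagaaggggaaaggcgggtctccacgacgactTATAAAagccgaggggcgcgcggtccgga
HSPA8: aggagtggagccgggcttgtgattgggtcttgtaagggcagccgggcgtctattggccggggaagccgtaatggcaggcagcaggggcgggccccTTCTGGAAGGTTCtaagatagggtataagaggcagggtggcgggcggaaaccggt
HSP90AA1: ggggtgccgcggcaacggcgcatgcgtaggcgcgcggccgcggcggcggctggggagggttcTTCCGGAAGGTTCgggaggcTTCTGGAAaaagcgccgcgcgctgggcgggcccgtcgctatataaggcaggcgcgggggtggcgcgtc
DNAJB1: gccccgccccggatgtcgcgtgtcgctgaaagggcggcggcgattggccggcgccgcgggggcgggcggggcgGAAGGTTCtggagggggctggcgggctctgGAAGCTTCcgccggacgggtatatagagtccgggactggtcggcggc
*HSPA1A* and *HSPA1B* shared 235 of 250 aligned bases (94%), with 14 mismatches and 2 gap bases. Each held 1 GAATATTC, which began 106 bases before the start in *HSPA1A* and 105 bases in *HSPA1B*, and 1 TATAAA at 30 and 29 bases. *HSPA8* carried TTCTGGAAGGTTC at 55 bases, *HSP90AA1* carried TTCCGGAAGGTTC at 88 bases and a further TTCTGGAA at 68 bases, and *DNAJB1* carried GAAGGTTC at 77 bases and GAAGCTTC at 47 bases.

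The same likeness within the HSP70 pair limits what its counts can say. *HSPA1A* (ENSG00000204389, chr6:31783320-31785723 on GRCh37) and *HSPA1B* (ENSG00000204388, chr6:31795515-31798031) are neighbouring genes of 1 exon each. Of all stretches of 150 bases, the read length, 69.6% of those in *HSPA1A* occur in *HSPA1B* and 70.1% of those in *HSPA1B* occur in *HSPA1A*. Read pairs wholly within such stretches align to both genes and are left out of unique counts. Counts at either gene thus fall short by an amount not measured, and the HSP70 pair is best read as one. *HSPE1* (chr2:198364864-198368173) shares 34.5% of its transcript bases with exons of the read-through gene *HSPE1-MOB4*. *HSPD1* had 0.0477% of its stretches in common with a pseudogene, and the other 6 members had none in common with another transcript.

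In the GFP libraries the 4 lines differed in transcript levels of the members, with overlap between some lines. To compare genes with each other, levels in GFP cells are given per kilobase of the canonical transcript (RPKM), scaled over all 20 libraries. *HSPA8*, the constitutive HSP70 that folds new proteins, was at 1088 and 1083 RPKM in A549 (sg1 and sg2), 1024 and 1024 RPKM in HCC366, 771.1 and 747.3 RPKM in NCI-H1650, and 778.9 and 420.4 RPKM in NCI-H196. *HSP90AA1*, the inducible cytosolic HSP90, was at 936.2 and 996.6 RPKM in A549 but at 249.5 and 251.9 RPKM in HCC366. NCI-H1650, at 334.2 and 333.8 RPKM, and NCI-H196, at 547.1 and 450.4 RPKM, lay between these. The constitutive HSP70 had the highest mean of the 10 genes in each line, but in NCI-H1650 its 2 libraries overlapped those of *HSPB1* and in NCI-H196 those of *HSP90AA1* and *HSPB1*. The overlap in NCI-H196 came from GFP sg2, with 91 reads on *HSPA8*.

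The inducible HSP70 genes had few counted reads per kilobase everywhere by comparison. Reads shared by the pair are left out while the full transcript length is used, so these values fall short by an amount not measured. Their rank among the genes is therefore uncertain. *HSPA1A* was at 64.6 and 64.9 RPKM in A549, 23.2 and 26.4 RPKM in HCC366, 40.9 and 47.3 RPKM in NCI-H1650, and 43.3 and 47.9 RPKM in NCI-H196, where NCI-H1650 and NCI-H196 overlapped. *HSPB1*, a small heat shock protein that holds unfolded proteins without ATP, was highest in NCI-H1650 at 761.2 and 695.5 RPKM and lowest in HCC366 at 138.9 and 136.4 RPKM, a ratio of 5.29 between means. *DNAJB1*, the HSP40 that delivers substrates to HSP70 and represses HSF1, followed that order at its ends, with 135.9 and 139.6 RPKM in NCI-H1650 and 38.6 and 36.9 RPKM in HCC366. *HSPD1* ran from 577.8 and 626.5 RPKM in A549 to 149.5 and 111.8 RPKM in NCI-H196, with HCC366 (233.7 and 223.2 RPKM) and NCI-H1650 (236.3 and 234.6 RPKM) close together.

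Across the 10 genes, A549 was highest for 6, NCI-H1650 for 2 and NCI-H196 for 2, and HCC366 was lowest for 7 and NCI-H196 for 3. The ratio of the highest to the lowest line went from 1.81 for *HSPA8* to 5.29 for *HSPB1*. The 1.81 rests on NCI-H196 GFP sg2, the library of 62679 reads. With GFP sg1 *HSPA8* was at 778.9 RPKM in that line, above the NCI-H1650 mean of 759.2 RPKM. Without GFP sg2, NCI-H196 was highest for 1 gene and NCI-H1650 for 3. The 2 genes highest in NCI-H196 were *HSPH1*, the HSP110 exchange factor for HSP70 (92.96 and 53.9 RPKM), and *BAG3*, which links HSP70 to autophagy (42 and 57.2 RPKM). In *HSPH1* the range of NCI-H196 met that of A549, and in *BAG3* it met those of A549 and NCI-H1650, so those neighbours did not differ beyond their spread. Both NCI-H196 ranges include GFP sg2, with 27 reads on *HSPH1* and 14 reads on *BAG3*. These levels were not tested, and in A549 vehicle handling goes with the line and cannot be told apart from it.

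**Figure D1:**
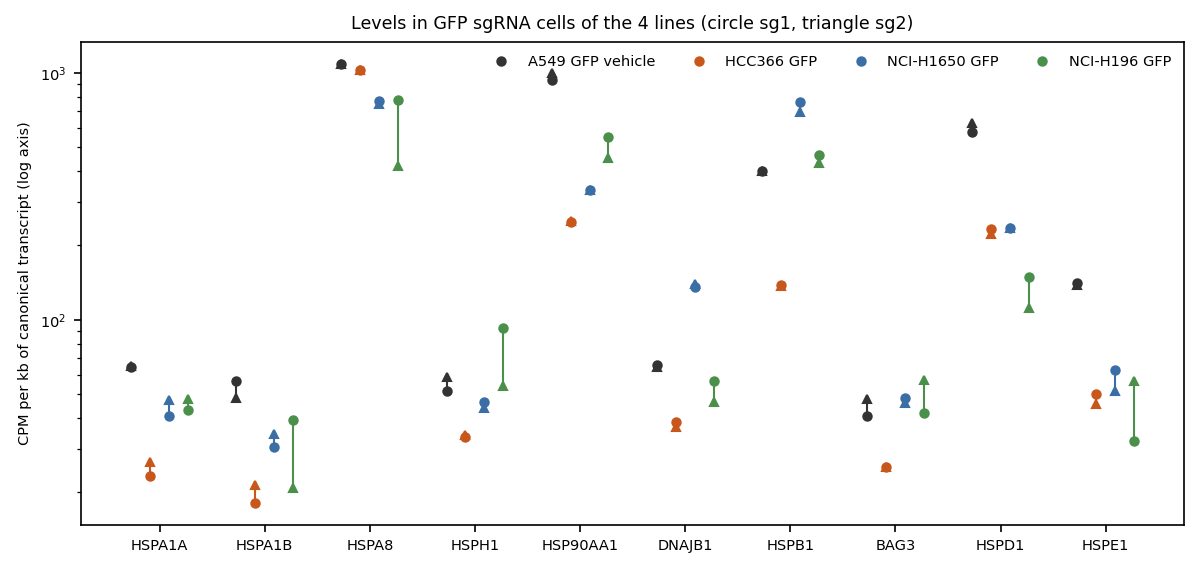
Level of each of the 10 genes in GFP libraries of the 4 lines, in CPM per kilobase of canonical transcript on a log axis, with a circle for sg1, a triangle for sg2 and a line joining them. *HSPA8* and *HSP90AA1* lie at the top, and *HSPA1A* and *HSPA1B*, which are counted short because shared reads are left out, are among the lowest. The widest gaps between the guides are those of NCI-H196, where sg2 had 62679 reads.

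The first comparison asks, guide by guide, whether loss of ADAR1 in HCC366 brought a heat shock response. The inducible HSP70 pair and *BAG3* were higher with both *ADAR* guides, but far more with sg2 than with sg1. *HSPA1A* was at 60.4 and 67.9 CPM with GFP sg1 and sg2, at 100.6 CPM with *ADAR* sg1 and at 394.5 CPM with *ADAR* sg2. *HSPA1B* was at 49.6, 57.6, 84 and 320.7 CPM in the same order. *BAG3* was at 70.5, 69.6, 97.1 and 172 CPM. In all 3 genes the groups did not overlap, and the *ADAR* guides differed from each other by more than the lower one differed from the controls. The share of all genes without overlap was not computed, here or in the other comparisons.

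The cochaperone *DNAJB1* and the small heat shock protein *HSPB1* were high in a single library. *DNAJB1* was at 93.7 and 88.5 CPM in the controls, 89.2 CPM with *ADAR* sg1 and 153.9 CPM with *ADAR* sg2. *HSPB1* was at 117 and 113.5 CPM, then 116.3 and 198.5 CPM. In the same library the remaining members were level or low. *HSPE1* was at 30.2 and 27.2 CPM in the controls, 21 CPM with *ADAR* sg1 and 6.47 CPM with *ADAR* sg2, which was 10 reads. *HSP90AA1*, at 873 and 870.1 CPM, stood at 841.6 and 672.5 CPM, and *HSPA8*, at 2512 and 2482 CPM, stood at 2474 and 2190 CPM.

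No member passed the test in HCC366: edgeR called 0 of 10, where it called 1.25% of all 11135 genes tested in either direction, 3 of 10 had an unadjusted p under 0.05, and DESeq2 called 2. The log2 fold change was 1.95 (SE 0.57, adjusted p = 0.143, edgeR) for *HSPA1A*, 1.92 (SE 0.56, adjusted p = 0.145) for *HSPA1B*, 0.95 (SE 0.38, adjusted p = 0.237) for *BAG3* and −1.10 (SE 0.53, adjusted p = 0.305) for *HSPE1*. The median over the members was 0.22, beside −0.01 over all genes. Without *ADAR* sg2, edgeR again called 0, with *HSPA1A* at 0.65 (adjusted p = 0.0657), *HSPA1B* at 0.64 (adjusted p = 0.0883), *BAG3* at 0.49 (adjusted p = 0.215), *HSPB1* at 0.04 and *DNAJB1* at 0.00. Without *ADAR* sg1, which leaves sg2 as the lone knockout library, it called 6 members (5 higher and 1 lower) among 6408 genes called in all, so that count is close to the background of that fit. HSF1 was not called (0.54, adjusted p = 0.497, edgeR), nor was *HSF2*, a second heat shock factor (−1.11, adjusted p = 0.23).

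GC content moved with this pattern. The 5 members with GC-rich transcripts, *HSPA1A*, *HSPA1B*, *HSPB1*, *DNAJB1* and *BAG3* (56.3% to 64.3% GC), were all above the controls in HCC366 *ADAR* sg2, and the 5 with AT-rich transcripts (36.9% to 45.7% GC) were all below. A curve of log2 level against GC content and length, fitted over all genes of that library, placed *HSPB1* 0.79, *HSPA1A* 0.57, *HSPA1B* 0.52, *DNAJB1* 0.48 and *BAG3* 0.44 above its line's mean, and *HSPE1* 0.84, *HSPD1* 0.64 and *HSPH1* 0.57 below it. With that curve taken out as an offset, *HSPA1A* (1.34, adjusted p = 0.0389, edgeR) and *HSPA1B* (1.35, adjusted p = 0.0412) passed the test, while *BAG3* (0.54, adjusted p = 0.128), *DNAJB1* (0.03) and *HSPB1* (−0.16) did not. *HSPE1* stood at −0.48 with the offset.

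**Figure D2:**
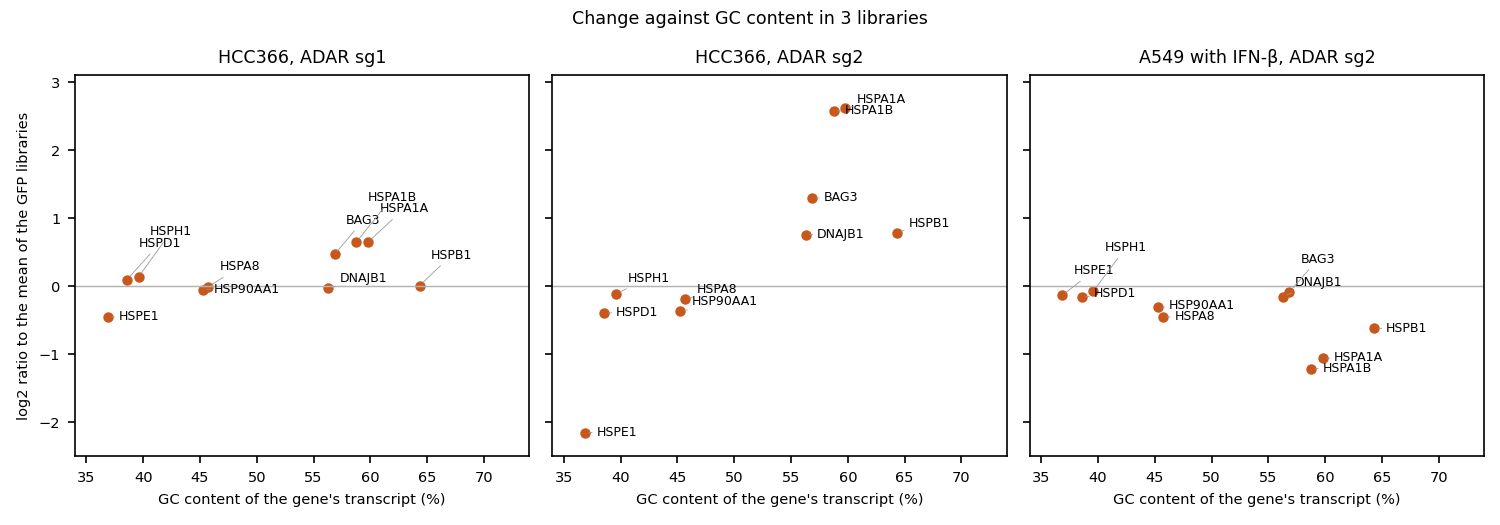
Each member's log2 ratio to the mean of the matching GFP libraries (vertical axis) against the GC content of its transcript in percent (horizontal axis), for 3 libraries: both *ADAR* guides in HCC366, and sg2 against *ADAR* in A549 under IFN-β. In HCC366 *ADAR* sg2 the GC-rich members lie above 0 and *HSPE1* lies at −2.15, whereas in A549 with IFN-β *HSPA1A* and *HSPA1B* lie near −1.

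In NCI-H1650 no member was called higher. Knockout lowered 2 members there, *HSP90AA1* and *HSPE1*, and left the inducible HSP70 pair within the range of the controls or close to it. *HSP90AA1* was at 1207 and 1230 CPM in the GFP libraries and at 937.3 and 941.3 CPM in the *ADAR* libraries, a log2 fold change of −0.38 (SE 0.10, adjusted p = 0.00848, edgeR). *HSPE1* was at 39.0 and 32.7 CPM, then at 23.4 and 23.3 CPM, a log2 fold change of −0.62 (SE 0.16, adjusted p = 0.00691). The 2 lower calls among 10 members stand beside 2.42% of all genes called lower. Both guides gave the same size of change, −0.38 and −0.37 for *HSP90AA1* and −0.62 and −0.62 for *HSPE1*.

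*HSPA8* and *HSPD1* were also lower with each guide without passing. *HSPA8* was at 1952 and 1932 CPM in the controls and at 1615 and 1565 CPM after knockout (−0.29, adjusted p = 0.0539, edgeR). *HSPD1* was at 593.4 and 601.2 CPM, then at 494.4 and 495.9 CPM (−0.27, adjusted p = 0.0773). *HSPA1A*, at 109.8 and 129.7 CPM with GFP guides, stood at 112.2 and 112.1 CPM with *ADAR* guides (−0.09). *HSPA1B* stood at 86.2 and 98.7 CPM, then at 86.5 and 101 CPM (0.02). *DNAJB1* (−0.05), *HSPB1* (−0.03), *BAG3* (0.04) and *HSPH1* (−0.17) were near level, and the median of the 10 was −0.13, beside 0.01 over all genes. Without GFP sg1 edgeR called 0 members, without GFP sg2 it called 1, and DESeq2 called 2, *HSP90AA1* and *HSPA8* rather than *HSPE1*. HSF1 (0.09) and *HSF2* (0.33) were not called.

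In NCI-H196 5 members rose. *HSPA1B* rose by a log2 fold change of 0.65 (SE 0.11, adjusted p = 4.94e-08, edgeR), *HSPA1A* by 0.58 (SE 0.11, adjusted p = 1.44e-06), *BAG3* by 0.55 (SE 0.11, adjusted p = 6.96e-06), *HSPB1* by 0.51 (SE 0.11, adjusted p = 7.57e-05) and *DNAJB1* by 0.46 (SE 0.10, adjusted p = 0.000156). The same test called 10.3% of all genes higher. These folds are carried by GFP sg1, since edgeR weights libraries by depth and GFP sg2 had few reads. *HSPA1A* was at 119.4 CPM with GFP sg1 and at 161.2 CPM, from 11 reads, with GFP sg2, then at 160.4 and 187.1 CPM with the *ADAR* guides, so the groups overlapped. *HSPA1B* was at 113.1 and 73.3 CPM (5 reads), then at 163.4 and 180.8 CPM, with no overlap.

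For the other called members the shallow control library lay on either side. *BAG3* was at 123.6 and 205.2 CPM (14 reads), then at 177.6 and 185.4 CPM, so its GFP sg2 value exceeded both knockout values. *DNAJB1* was at 145 and 146.6 CPM (10 reads), then at 168.5 and 211.1 CPM. *HSPB1* was at 414 and 469.1 CPM, then at 534.9 and 631.5 CPM. In *DNAJB1* and *HSPB1* the knockout libraries lay above both controls. *HSPH1* (0.23, adjusted p = 0.136, edgeR), *HSP90AA1* (0.03), *HSPD1* (0.04), *HSPA8* (−0.17) and *HSPE1* (−0.54, adjusted p = 0.0586) did not pass, and the median of the 10 was 0.34 beside 0.00 over all genes.

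These calls needed GFP sg1 and both *ADAR* libraries. Without GFP sg2 edgeR called 7 members, the same direction for the 5 higher ones (0.46 to 0.63) and lower calls for *HSPA8* (−0.30, adjusted p = 6.03e-06) and *HSPE1* (−0.53, adjusted p = 0.042). Without GFP sg1, without *ADAR* sg1 and without *ADAR* sg2 it called 0 each time, and the total over all genes dropped to 41, 527 and 103. DESeq2 called 0 members and 10 genes in all. A further HSP70, *HSPA6*, which human cells make almost only under stress, rose by 3.01 (SE 0.32, adjusted p = 4.05e-18, edgeR), from 2.23 and 0 CPM with the GFP guides to 13.2 and 18.8 CPM with the *ADAR* guides. *HSPA6* was at 2.32, 0.86, 2.62 and 22 CPM in HCC366 (GFP sg1, GFP sg2, *ADAR* sg1, *ADAR* sg2), where it did not pass the filter, between 8.12 and 9.55 CPM in the 4 libraries of NCI-H1650 and at most 1.22 CPM in A549. So it was well above the controls with both *ADAR* guides in NCI-H196 and with sg2 alone in HCC366, the library with 85.6% of alignments not unique. In NCI-H1650 it was at a similar level in GFP and *ADAR* libraries, above its level in the GFP libraries of the other lines.

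**Figure D3:**
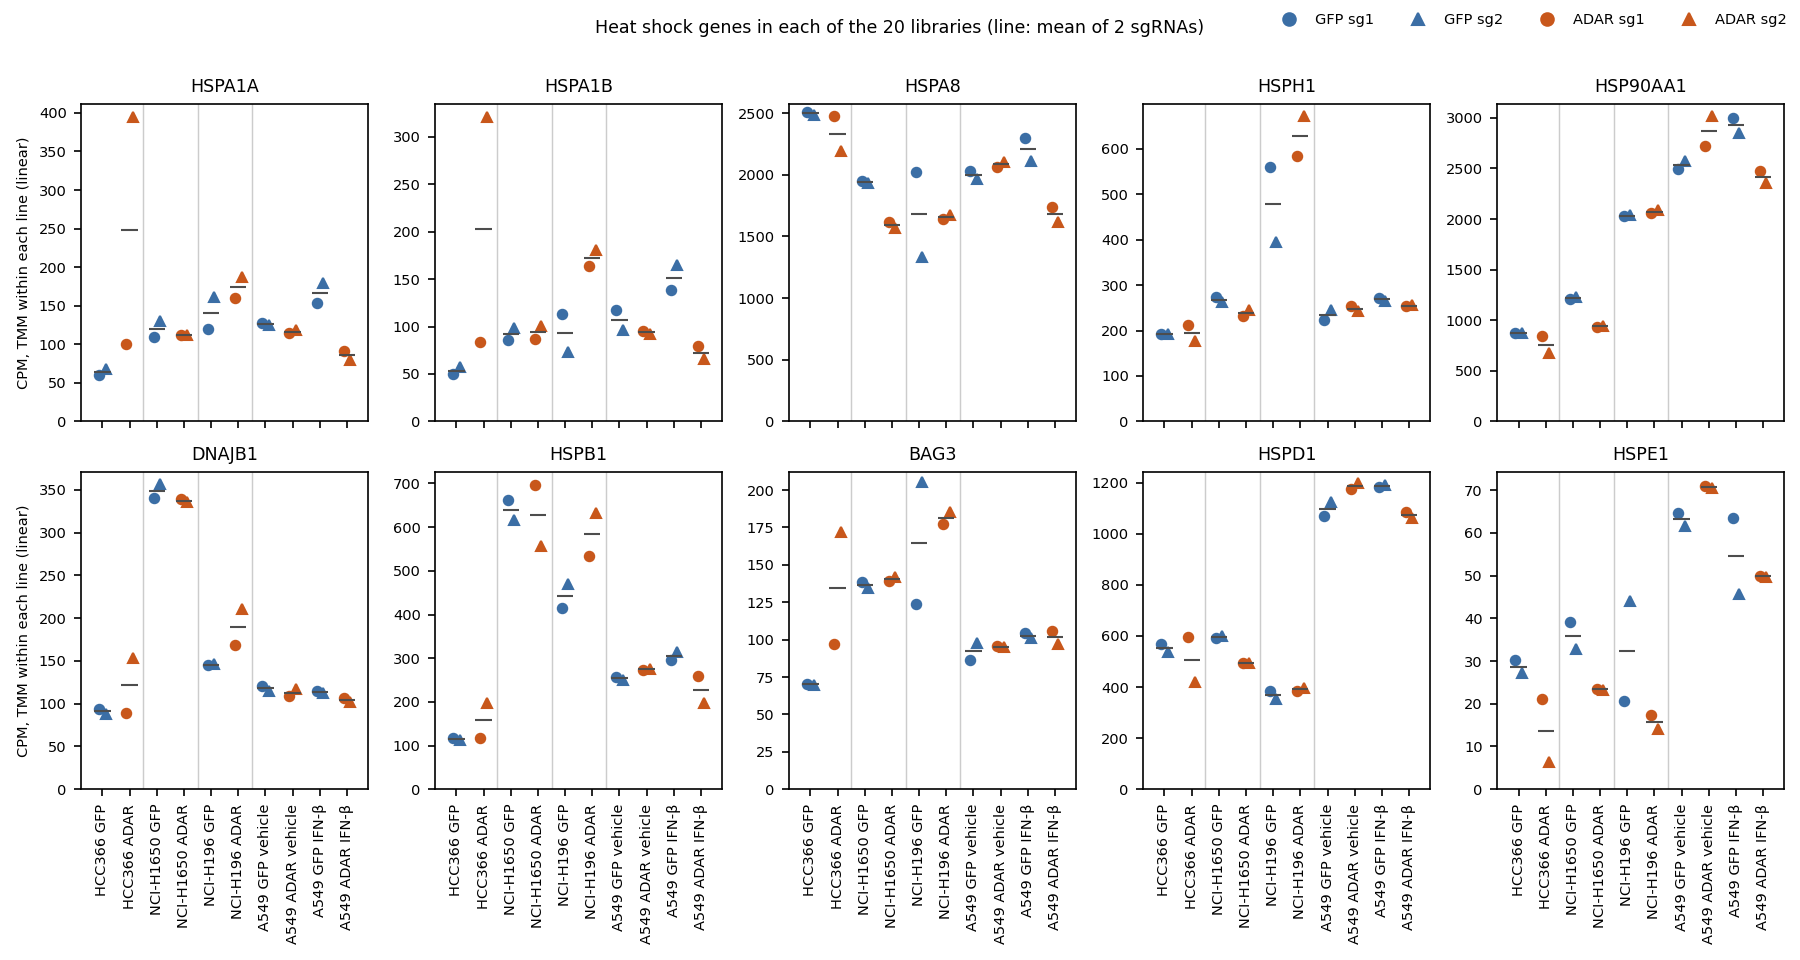
CPM of each of the 10 genes in the 20 libraries, on linear axes that start at 0, with circles for sg1, triangles for sg2, blue for GFP, orange for *ADAR* and a bar at the mean of each pair. *HSPA1A* and *HSPA1B* stand out in HCC366 *ADAR* sg2 at 394.5 and 320.7 CPM, and fall under every other A549 library in the 2 A549 *ADAR* libraries with IFN-β.

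Fitted as one effect over the 3 dependent lines, knockout lowered 1 member, *HSPE1*, by a log2 fold change of −0.76 (SE 0.20, adjusted p = 0.032, edgeR), against 1.02% of all genes called lower. *HSPE1* was lower than both controls with each of the 6 *ADAR* guide libraries, but the call was lost when any of 7 of the 12 libraries was left out: either GFP library of HCC366, GFP sg2 or *ADAR* sg2 of NCI-H196, and GFP sg1 or either *ADAR* library of NCI-H1650. Without NCI-H196 GFP sg2 it stood at −0.75 (adjusted p = 0.0514, edgeR) and without HCC366 *ADAR* sg2 at −0.59 (adjusted p = 0.0022). *HSPA1B* (0.82, adjusted p = 0.0989), *HSPA1A* (0.73, adjusted p = 0.154) and *BAG3* (0.42, adjusted p = 0.14) did not pass. A test of whether the knockout effect differed among the 3 lines called 0 members in edgeR, where it called 0.701% of all genes, with *HSPA1A* (adjusted p = 0.116) and *HSPA1B* (adjusted p = 0.165) at unadjusted p under 0.05, and DESeq2 also called 0. With the GC and length offsets the difference among lines passed for *HSPA1A* (adjusted p = 0.0028) and *HSPA1B* (adjusted p = 0.00803). The GC and length curves also placed *HSPE1* (36.9% GC) lower in both *ADAR* libraries than in either GFP library of each dependent line. With offsets and each line fitted alone, *HSPE1* stood at −0.48 in HCC366 and −0.37 in NCI-H196, without passing. In NCI-H1650 it was still called, at −0.46 (adjusted p = 0.0347, edgeR). Across the other settings of the joint fit it ran from −0.83 to −0.46, with adjusted p (edgeR or DESeq2) from 0.00172 to 0.136.

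In A549 with vehicle no member passed the test. The tool edgeR called 0 of 10, where it called 0.123% of all genes, 0 of 10 had an unadjusted p under 0.05, and DESeq2 called 0. *HSPA1A* was at 128 and 124.6 CPM in the controls and at 114.9 and 118.2 CPM after knockout, *HSPA1B* at 117.6 and 96.8 CPM, then at 95.7 and 92.2 CPM. The 10 log2 fold changes lay between −0.18 and 0.18 with standard errors of at most 0.13. *HSPA1A* and *HSPA1B* were a little lower with both guides and *HSP90AA1* a little higher (2496 and 2575 CPM, then 2723 and 3017 CPM), with no overlap between the groups. *HSPA8* (0.06), *HSPD1* (0.11), *HSPE1* (0.16) and *HSPB1* (0.11) were also higher with no overlap and did not pass. The share of all genes without overlap was not computed here or with IFN-β, so these separations are a description only.

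With IFN-β the same knockout lowered 5 members, most of all the inducible HSP70 pair. *HSPA1A* was at 153.2 and 179.7 CPM in GFP cells and at 91.3 and 79.7 CPM in *ADAR* cells, a log2 fold change of −0.97 (SE 0.11, adjusted p = 8.03e-08, edgeR). *HSPA1B* was at 138.7 and 164.6 CPM, then at 79.5 and 65.5 CPM (−1.07, SE 0.12, adjusted p = 7.19e-08). Levels in *ADAR* cells were thus 0.511 times those in GFP cells for *HSPA1A* and 0.475 times for *HSPA1B*. Both guides showed it, at −0.87 and −1.06 for *HSPA1A* and at −0.93 and −1.21 for *HSPA1B*, and both knockout libraries lay under every other A549 library.

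Another 3 chaperones fell by less. *HSPA8* fell by 0.39 on the log2 scale (SE 0.10, adjusted p = 0.00447, edgeR), from 2300 and 2111 CPM to 1738 and 1619 CPM. *HSP90AA1* fell by 0.28 (SE 0.10, adjusted p = 0.0485), from 3002 and 2853 CPM to 2478 and 2361 CPM. *HSPB1* fell by 0.42 (SE 0.11, adjusted p = 0.00577), from 295.1 and 314.2 CPM to 258.2 and 198 CPM. In all 3 the groups did not overlap, as also in *DNAJB1*, *HSPH1* and *HSPD1*, which did not pass. The other members, *DNAJB1* (−0.12), *HSPH1* (−0.07), *BAG3* (−0.02), *HSPD1* (−0.15) and *HSPE1* (−0.12), did not pass.

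The 5 lower calls compare with 6.19% of all genes called lower, and the median of the 10 was −0.21 beside −0.01. DESeq2 also called 5, and a fit of all 20 libraries called 2. Without *ADAR* sg2 with IFN-β, edgeR called 2, *HSPA1A* (−0.87, adjusted p = 2.55e-05) and *HSPA1B* (−0.93, adjusted p = 2.4e-05), with *HSPA8* at −0.34 (adjusted p = 0.0777), *HSP90AA1* at −0.24 and *HSPB1* at −0.24. With GC and length offsets *HSPA1A* stood at −0.81 and *HSPA1B* at −0.93, both still called, *HSPB1* was lost (−0.17, adjusted p = 0.209) and *HSPD1* gained a call (−0.31, adjusted p = 0.00983). GC content and length accounted for 14.8% of the variance in GFP sg2 with IFN-β and for 7.31% in *ADAR* sg2 with IFN-β, and the curves placed *HSPB1* 0.25 above the line's mean in the first and 0.23 below it in the second. HSF1 (−0.07, adjusted p = 0.71, edgeR) and *HSF2* (0.28, adjusted p = 0.491) were not called.

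The effect of IFN-β itself depended on the guide target. In GFP cells it raised 2 members, *HSPA1A* by 0.40 (SE 0.11, adjusted p = 0.017, edgeR) and *HSPA1B* by 0.51 (SE 0.12, adjusted p = 0.00457), against 4.39% of all genes called higher. The IFN-β libraries of both guides lay above both vehicle libraries for each gene. Without GFP vehicle sg2 or GFP IFN-β sg2, 0 members were called, without GFP vehicle sg1 only 1 and without GFP IFN-β sg1 3. In *ADAR* cells IFN-β lowered 4 members, *HSPE1* by 0.50 (SE 0.13, adjusted p = 0.0048, edgeR), *HSPA1A* by 0.45 (SE 0.11, adjusted p = 0.00259), *HSPA1B* by 0.38 (SE 0.12, adjusted p = 0.0206) and *HSPA8* by 0.31 (SE 0.10, adjusted p = 0.0169), against 9.04% of all genes called lower. *HSPE1* was at 70.98 and 70.4 CPM with vehicle and at 49.9 and 49.7 CPM with IFN-β in those cells. Without *ADAR* IFN-β sg2 it was the only member called (−0.51, adjusted p = 0.0416), and without *ADAR* vehicle sg1 or sg2 2 were called. The fit of all 20 libraries called 0 members for IFN-β in either kind of cell.

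The difference between these effects was tested as an interaction, which called 5 members lower, against 0.977% of all genes. *HSPA1B* had −0.89 (SE 0.17, adjusted p = 0.00104, edgeR), *HSPA1A* −0.85 (SE 0.15, adjusted p = 0.000547), *HSPB1* −0.54 (SE 0.15, adjusted p = 0.0336), *HSPA8* −0.45 (SE 0.14, adjusted p = 0.0468) and *HSP90AA1* −0.45 (SE 0.14, adjusted p = 0.0492). These log2 values are the amount by which the IFN-β effect was lower in *ADAR* cells than in GFP cells. The median of the 10 was −0.37 beside 0.00 over all genes. Without *ADAR* IFN-β sg2, 2 stayed called, *HSPA1A* (−0.75, adjusted p = 0.0112) and *HSPA1B* (−0.75, adjusted p = 0.0224), and without either GFP vehicle or either *ADAR* vehicle library 2 were called as well. With GC and length offsets *HSPB1* was at −0.29 (adjusted p = 0.188). In a fit of all 20 libraries edgeR called 0 members, with *HSPA1A* at −0.89 (adjusted p = 0.406) and *HSPA1B* at −0.92 (adjusted p = 0.366), so the size of the difference was kept and the calls were not. The comparisons within A549 share libraries, so their values stand side by side here and were not correlated.

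**Figure D4:**
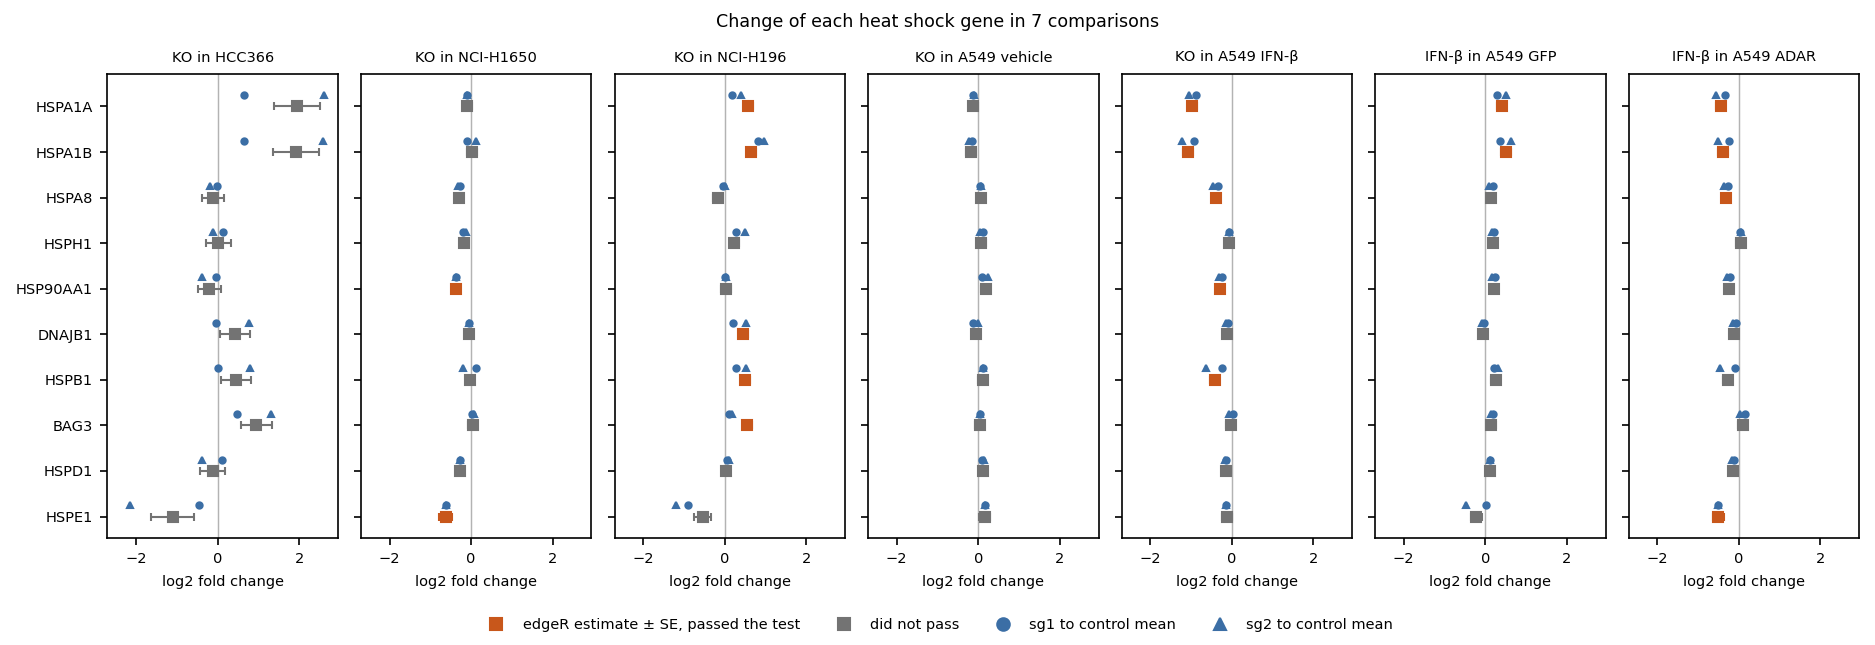
Log2 fold change of each gene in 7 comparisons, as edgeR estimates with standard errors (squares, orange where the test was passed) and as the ratio of each sgRNA library to the mean of its controls (circles for sg1, triangles for sg2). *HSPA1A* and *HSPA1B* lie to the right of 0 in HCC366 and NCI-H196, close to 0 in NCI-H1650 and A549 with vehicle, and near −1 in A549 with IFN-β.

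Whether knockout acted differently in a dependent line than in A549 was tested in a fit of all 20 libraries, a comparison chosen after seeing the data. Against A549 with vehicle, the knockout effect in HCC366 differed for 4 members, where 7.95% of all genes did. It was greater for *HSPA1B* (by 2.05, adjusted p = 0.00173, edgeR), *HSPA1A* (by 2.02, adjusted p = 0.00178) and *BAG3* (by 0.87, adjusted p = 0.0461) and smaller for *HSPE1* (−1.34, adjusted p = 0.0315). With GC and length offsets *HSPA1B* (1.53) and *HSPA1A* (1.45) still passed. *BAG3* (0.49, adjusted p = 0.162, edgeR) and *HSPE1* (−0.54, adjusted p = 0.348) did not pass with them. Without HCC366 *ADAR* sg2 none of these 4 differences passed in edgeR (*HSPA1A* 0.71, adjusted p = 0.173). The effects in NCI-H1650 and NCI-H196 differed from that in A549 with vehicle for 0 members, with 2 and 0 at unadjusted p under 0.05, where 0.00512% and 0.041% of all genes differed. DESeq2 was not run on these differences.

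Against A549 with IFN-β, HCC366 differed for 4 members, *HSPA1B* (2.98, adjusted p = 4.58e-05, edgeR), *HSPA1A* (2.90, adjusted p = 4.92e-05), *BAG3* (0.97, adjusted p = 0.0204) and *HSPB1* (0.88, adjusted p = 0.0415), where 11.3% of all genes did. With GC and length offsets *HSPB1* stood at −0.02 and *BAG3* at 0.47 (adjusted p = 0.199, edgeR), and neither passed. *HSPA1B* (2.31) and *HSPA1A* (2.17) still passed with them. The HSP70 pair stayed past the threshold without HCC366 *ADAR* sg2, at 1.69 (adjusted p = 3.08e-06) for *HSPA1B* and 1.59 (adjusted p = 3.73e-06) for *HSPA1A*. NCI-H1650 and NCI-H196 differed for 0 members, with 2 and 3 at unadjusted p under 0.05, where 0.21% and 0.302% of all genes differed. Without HCC366 *ADAR* sg2 the pair differed from A549 with IFN-β in NCI-H1650, by 1.14 (adjusted p = 1.22e-05) for *HSPA1B* and 0.92 (adjusted p = 0.000924) for *HSPA1A*, and in NCI-H196, by 1.71 (adjusted p = 5.41e-11) and 1.49 (adjusted p = 1.11e-08), with *HSPB1* called there too (0.91, adjusted p = 0.00228). Without that library *HSPA1B* also differed between NCI-H196 and A549 with vehicle (0.79, adjusted p = 0.041).

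The partners of these chaperones were called in both directions. Of 19 tested cochaperones of HSP70 and HSP90, 0 were called in HCC366, 1 higher and 2 lower in NCI-H1650, and 1 lower in NCI-H196. Of all genes, 1.25% were called in either direction in HCC366. The shares were 6.18% higher and 2.42% lower in NCI-H1650, and 7.5% lower in NCI-H196. In A549 with IFN-β knockout lowered 5 and raised 1, where it lowered 6.19% and raised 10.8% of all genes. The lower ones included *STUB1* (−0.48), a ubiquitin ligase that acts on HSP70 clients, *AHSA1* (−0.47), which activates HSP90, and *STIP1* (−0.45), which joins HSP70 to HSP90. The one that rose was *DNAJB4* (0.97), an HSP40. IFN-β in GFP cells raised *DNAJA1* (0.65), an HSP40, and *BAG1* (0.53), an HSP70 exchange factor, against 4.39% of all genes. Of the 8 subunits of TRiC, the cytosolic chaperonin, 3 fell in NCI-H1650 and 3 in NCI-H196, where the list's medians were −0.27 and −0.09 and 2.42% and 7.5% of all genes were called lower. Knockout lowered 2 of them in A549 with IFN-β, against 6.19% of all genes. In this list 0 were called by edgeR in HCC366 or in A549 with vehicle, with 0 at unadjusted p under 0.05. IFN-β lowered 5 of the 8 in *ADAR* cells, against 9.04% of all genes.

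Among 11 other cytosolic heat shock proteins, 4 of the 9 tested rose in NCI-H196, against 10.3% of all genes. *HSPA6*, *CRYAB* (0.52), a small heat shock protein, and *HSPA4L* (0.45), a relative of *HSPH1*, were in the lead. In A549 with IFN-β knockout raised 2 of 7, against 10.8% of all genes. These were *HSPB8* (0.65), the small heat shock protein that partners *BAG3*, and *HSPA4L* (0.44). Of 14 chaperones of the endoplasmic reticulum, which answer to a separate stress pathway, 10 rose in NCI-H196 (median 0.42), against 10.3% of all genes, led by *HYOU1* (0.74), the exchange factor of the reticulum's HSP70. Calls over all genes in that line dropped to 41 without GFP sg1 and to 10 with DESeq2. Knockout lowered 7 of the 14 in A549 under IFN-β (median −0.27), against 6.19% of all genes, *CRELD2* (−0.74) first. *HYOU1* in NCI-H196 was at 178.9 CPM with GFP sg1 and 395.8 CPM, from 27 reads, with GFP sg2, then at 331.9 and 299.3 CPM. IFN-β in GFP cells raised 5 of the 14, against 4.39% of all genes, with HSPA5, the HSP70 of the reticulum, at 0.53. Of 7 mitochondrial chaperones and proteases, 2 rose and 1 fell in NCI-H196 and 2 fell with knockout in A549 under IFN-β. Of all genes, 10.3% rose and 7.5% fell in NCI-H196, and 6.19% fell in A549 under IFN-β. Of the 4 heat shock factors and regulators tested, 0 were called in edgeR in any of the 9 comparisons, with 0 to 2 at unadjusted p under 0.05.

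Immediate-early genes, which are transcribed within minutes of growth signals, stress or handling, were called higher in more comparisons than the members were. Of 12 such genes, knockout raised 4 of the 11 tested in HCC366 (median 2.32), 9 in NCI-H1650 (median 0.91), 12 in NCI-H196 (median 1.15), 1 in A549 with vehicle and 12 in A549 with IFN-β (median 1.39). The share of all genes called higher was 6.18% for NCI-H1650, 10.3% for NCI-H196 and 10.8% for A549 with IFN-β. Called in either direction were 1.25% in HCC366 and 0.123% in A549 with vehicle. *EGR1*, a zinc finger factor of this group, was at 1.59 and 0.99 CPM in GFP cells with IFN-β and at 308.6 and 498.5 CPM in *ADAR* cells with IFN-β, a log2 fold change of 8.34 (SE 0.26, adjusted p = 2.84e-20, edgeR), in the very libraries where *HSPA1A* and *HSPA1B* were lowest. In NCI-H1650 *ATF3* rose by 1.90 (SE 0.12, adjusted p = 3.6e-18, edgeR) with no member called higher. The study lists *ATF3* among targets of the transcription factor ATF4, a set it reports as raised by knockout in the dependent lines. The part of handling or stress signals in these values was not tested.

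The members varied together in 2 groups that differ in base composition, a split that was seen with HCC366 and not without it. Over the 19 libraries other than NCI-H196 GFP sg2, with each line's mean taken out, log2 levels of the 5 GC-rich members correlated with each other at Pearson r between 0.73 and 0.99 (median 0.84), those of the 5 AT-rich members at 0.35 to 0.92 (median 0.74), and pairs across the groups at −0.87 to 0.07 (median −0.26). Without the 4 HCC366 libraries the ranges over 15 libraries were 0.40 to 0.97 (median 0.64), 0.04 to 0.96 (median 0.66) and, across the groups, −0.48 to 0.58 (median 0.41). The grouping was made after the values were seen, and the points share library, depth and GC content, so they are a description only.

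By the same measure over 12033 genes, the gene most like *HSPA1B* was *HSPA1A* (r = 0.99), and *MAMDC4* (0.943), *PAK4* (0.927) and *ZFTRAF1* (0.925), which are outside the heat shock family, were among the next. Those most like *DNAJB1* were *SBF1* (0.929), *RN7SL5P* (0.909), *MKNK2* (0.906) and *DPP9* (0.899). *HSPH1* had the member *HSPD1* (0.751) among its nearest 5, after *SLC31A1* (0.831), *DDX52* (0.783) and *FAM174B* (0.769) and ahead of *TCEAL8* (0.749). The search was made for these 3 members.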

How the data were processed

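Total RNA was extracted on columns with DNase treatment, ribosomal RNA was depleted, and strand-specific libraries were sequenced as 150-base read pairs. Per the labels and methods, the authors aligned reads with STAR to hg19 and deposited raw counts per gene from HTSeq. The strand setting and the annotation release are not given in the sources used here. No column of values was left unused. Reads on genes ranged from 62679 to 19520189 per library, so 1 read is worth most in NCI-H196 GFP sg2. Identifiers were matched to symbols for 55727 of 58233 rows.

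Counts were fitted with edgeR 4.0.16 (R 4.3.3, limma 3.58.1): TMM scaling, the default low-count filter by condition, the quasi-likelihood test, and Benjamini-Hochberg adjustment over all genes tested at 0.05. Each of HCC366, NCI-H1650 and NCI-H196 was fitted alone, the 3 together with a line term, and the 8 A549 libraries in one fit with an interaction. A gene is called when its adjusted p is below 0.05. CPM were computed within each line, and CPM per kilobase over all 20 libraries. Per-guide values are log2 ratios of a library to the mean of its controls. The scripts were tested on simulated data with known changes before use.

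The 2 sgRNAs of a condition are its replicates, and p-values measure the spread between such libraries, which may be technical. Deviations from group means in libraries with the same guide number correlated at −0.178 in HCC366 and between −0.0498 and 0.0297 in the other pairs of conditions, so guide numbers were not taken to pair libraries. All 10 members, *ADAR*, HSF1 and *HSF2* are described, and from each other list the genes named are among the 3 largest increases and 3 largest decreases called in that comparison. *HYOU1* per library, *HSPA6* in lines where it was not called and the GC grouping were chosen after their values were seen. The members and gene lists were chosen with earlier results of these data known. Alternatives were DESeq2 1.42.0 (its test and its size factors), no low-count filter, each library left out, replicate blocks, offsets for GC content and length, *HSPA1A* and *HSPA1B* summed, and all 20 libraries in one fit. Crossed replicate numbers, the differences between lines, and the alternatives for both the difference among the 3 lines and those differences were added after seeing the data. A gene among those most like *HSPA1B* is not reported here.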

Additional observations from a re-analysis of the deposited data

Results flagged for a closer look

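The effect of IFN-β differed between GFP and *ADAR* cells of A549 for 5 genes in the interaction test. On the log2 scale the difference was −0.85 for *HSPA1A*, −0.89 for *HSPA1B*, −0.45 for *HSPA8*, −0.45 for *HSP90AA1* and −0.54 for *HSPB1*. Of these, *HSPA1A* and *HSPA1B* stayed past the threshold without the *ADAR* IFN-β sg2 library, at −0.75 each. In a fit of all 20 libraries none of the 5 passed in edgeR, with *HSPA1A* at −0.89 (adjusted p = 0.406) and *HSPA1B* at −0.92 (adjusted p = 0.366).

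The knockout effect in HCC366 differed from that in A549 with vehicle for 4 genes, by 2.02 for *HSPA1A*, 2.05 for *HSPA1B*, 0.87 for *BAG3* and −1.34 for *HSPE1*. It differed from that in A549 with IFN-β by 2.90 for *HSPA1A*, 2.98 for *HSPA1B*, 0.97 for *BAG3* and 0.88 for *HSPB1*. Without HCC366 *ADAR* sg2, 0 of the first set and 2 of the second (*HSPA1A* 1.59, *HSPA1B* 1.69) passed in edgeR. In that library 85.6% of alignments were not unique. With GC and length offsets only *HSPA1A* and *HSPA1B* passed in each set. Each condition had 2 libraries, too few to look for a library far from its group.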

How the results depend on the processing

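Counts of called members are given against those of the report. Over all genes HCC366 had 139 calls in the report's fit, 362 with DESeq2, 903 without the low-count filter, 954 with GC and length offsets and 3701 with all 20 libraries. DESeq2 called 2 members in HCC366 and 0 in NCI-H196 (10 genes). Without the low-count filter 2 were called in HCC366, 3 over the 3 lines and 2 for the difference among those lines. With GC and length offsets 2 were called in HCC366, and in fits added after seeing the data 2 for the difference among the 3 lines, and for HCC366 against A549 with vehicle 2, HCC366 against A549 with IFN-β 2, NCI-H1650 against A549 with IFN-β 1 and NCI-H196 against A549 with IFN-β 2. With all 20 libraries in one fit knockout gave 4 calls in HCC366, 0 for NCI-H1650 and 0 for NCI-H196, 4 over the 3 lines, 2 for knockout in A549 with IFN-β, 0 and 0 for IFN-β in GFP and *ADAR* cells, and 0 for the interaction, whose fold changes were as large as in the report (*HSPA1A* −0.89, *HSPA1B* −0.92). The joint fit of HCC366 and NCI-H1650, without NCI-H196, gave 0 in place of the 1 over the 3 lines. With *HSPA1A* and *HSPA1B* summed, IFN-β in GFP cells gave 1, since both called genes become 1. With DESeq2 size factors 1 member was highest in HCC366. The cause was not tested, except that fewer libraries or genes enter some fits.

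The replicate block by guide number, which the data do not bear out as a pairing, gave 0 in NCI-H196, 0 over the 3 lines and 3 for the interaction (3 also with the block by sgRNA). The replicate block with GC and length offsets gave 2 in HCC366, 0 in NCI-H196, 0 over the 3 lines and 2 for the difference among them. A block with crossed numbers in HCC366, chosen after seeing the data, gave 2.

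Leaving out 1 library at a time gave 0 to 6 called members in HCC366, 0 to 2 for NCI-H1650, 0 to 7 for NCI-H196, 0 to 1 over the 3 lines, 0 in A549 with vehicle, 2 to 5 for knockout in A549 with IFN-β, 0 to 3 for IFN-β in GFP cells, 1 to 6 in *ADAR* cells, 2 to 5 for the interaction and 0 to 6 for the difference among the 3 lines. For differences between lines it gave 0 to 4 for HCC366 against A549 with vehicle, 2 to 4 for HCC366 against A549 with IFN-β, 0 to 2 for NCI-H1650 and 0 to 3 for NCI-H196 against A549 with IFN-β, and 0 to 1 for NCI-H196 against A549 with vehicle. The count of members highest in NCI-H196 fell to 1. *BAG3* in NCI-H196 turned to −0.15 without GFP sg1 and stood at up to 0.56 otherwise. Of single-gene values, 760 kept their side of the threshold, or for GFP levels stayed within their SD, in the other settings. Another 49 lost a call, 40 gained one and 20 GFP levels, which have no test, moved by more than their SD. A change of sign was counted as a reversal only where either fit called the gene. *HSPB1* in HCC366 is thus among the 760, although it went from 0.45 to −0.16 with GC and length offsets. With 1 library left out, 688 were kept by the same rule, 61 lost a call, 20 gained one and 1 reversed. At 62679 reads, NCI-H196 GFP sg2 could show only large differences in *HSPE1* or *HSPA1B*.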
